A study of Mus musculus with 10 samples.

Results

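The genes described here are 35 genes of homologous recombination and of the Fanconi anaemia pathway, chosen by symbol from a list of BRCA complex members, recombination paralogs, their partners and motors, Fanconi proteins, end-resection enzymes and DNA damage kinases. All 35 were among the 39769 gene symbols measured in mouse cerebellum and its tumours, and all 35 were among the 15617 genes with enough reads to be tested. RNA was sequenced from 10 libraries after poly-A selection. The NKP group held 3 libraries labelled as medulloblastoma, a tumour of the cerebellum, from Nestin-Cre Kmt2dfl/+ Ptch+/- mice aged 4 months. The AKP group held 3 libraries labelled as medulloblastoma from AtohI-Cre Kmt2dfl/+ Ptch+/- mice, aged 2 months for AKP 1 and AKP 2 and 4 months for AKP 3. The Ptch group held 4 control libraries labelled as cerebellum from Ptch+/- mice, aged 4 months for Ptch 1 and Ptch 2 and 2 months for Ptch 3 and Ptch 4. Every group therefore carried the Ptch heterozygous allele, and NKP and AKP added loss of 1 copy of Kmt2d, a histone H3 lysine methyltransferase, in the cells reached by each Cre. Nestin-Cre acts in neural stem and progenitor cells, and Atoh1-Cre acts in granule neuron precursors. Whether replicates were taken from different mice is not stated in the labels, and each p-value therefore rests on library-to-library spread that may be technical.

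Homologous recombination repairs broken DNA from an intact sister copy, and the Fanconi pathway removes crosslinks between the strands by feeding them into the same machinery. Resection enzymes expose single strands, BRCA1 and BRCA2 complexes prepare these strands for pairing with the sister copy, paralogs and motor proteins support the pairing, and BLM with RMI1 resolves the joined molecules. Because the sister copy exists only after replication, part of this gene set is transcribed mainly in S and G2 phase, while the rest is expressed at similar levels in cycling and resting cells. By such background knowledge, 18 members were classed as cell-cycle-linked and 17 as constant, at a time when earlier results of these data were known, so the contrast between the classes is a description and not an independent test. In the early postnatal cerebellum, cycling cells are mainly granule neuron precursors, the cells from which Sonic hedgehog medulloblastoma arises. The mice sampled here were older, and which of their cells were cycling was not tested. Inherited variants of human BRCA2 and PALB2 are known to predispose to medulloblastoma.

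RefSeq promoter sequences (build GRCm38.p6, from 250 bases before to 50 bases after the start) were available for 27 of the 35 members. They were read for letters of the kind bound by E2F factors, which drive S-phase genes, as TTTGGCGC, TTTCGCGC, TTTCCCGC or TTTGCCGC on either strand. None of the motif strings searched contains another. At least 1 of these strings stood in the promoters of 6 of 27 members (22.2%), against 704 of 27025 genes with a promoter (2.6%). The 6 genes were Bard1, Brca2, Chek2, Fancg, Rad51c and Rmi1, so the letters occurred in 2 of 13 cell-cycle-linked members (15.4%) and in 4 of 14 constant members (28.6%). A CCAAT box, the letters CCAAT on either strand, stood in 18 of 27 members (66.7%), against 41.1% of all genes with a promoter, and a CHR element (TTTGAA or TTCGAA) in 3 of 27 (11.1%), against 21.7%. Only exact strings were counted, and stretches that differ by 1 letter, as in cell-cycle-linked Chek1 and constant Atm, were not. Such matches describe letters and not bound sites, and do not show which class holds more E2F sites. The sequences of 2 cell-cycle-linked members, Bard1 at chr1:71102923-71103222 (minus strand) and Brca2 at chr5:150522371-150522670 (plus strand), are set beside those of 2 constant members, Rad51c at chr11:87404905-87405204 (minus strand) and Rmi1 at chr13:58402347-58402646 (plus strand), because members of both classes hold the letters. Capitals mark the E2F-type letters, whose first base lies at -209 in Bard1, -168 in Brca2, -5 in Rad51c and 27 in Rmi1, counted along the gene with the start as base 1 and the base before it as -1. Rad51c and Rmi1 each have a second listed start, and the one with letters nearest to it is shown.
Bard1: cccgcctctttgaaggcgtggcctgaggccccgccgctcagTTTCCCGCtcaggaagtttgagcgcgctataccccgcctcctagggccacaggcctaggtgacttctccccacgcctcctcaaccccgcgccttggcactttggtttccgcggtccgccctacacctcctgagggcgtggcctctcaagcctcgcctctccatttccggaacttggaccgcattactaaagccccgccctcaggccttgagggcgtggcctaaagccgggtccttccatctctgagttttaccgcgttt
Brca2: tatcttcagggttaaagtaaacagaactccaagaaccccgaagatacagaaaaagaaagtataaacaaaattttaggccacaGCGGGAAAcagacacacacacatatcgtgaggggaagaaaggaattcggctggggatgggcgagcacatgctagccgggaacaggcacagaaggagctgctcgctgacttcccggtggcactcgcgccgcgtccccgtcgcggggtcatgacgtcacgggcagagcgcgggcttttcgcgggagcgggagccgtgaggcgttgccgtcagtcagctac
Rad51c: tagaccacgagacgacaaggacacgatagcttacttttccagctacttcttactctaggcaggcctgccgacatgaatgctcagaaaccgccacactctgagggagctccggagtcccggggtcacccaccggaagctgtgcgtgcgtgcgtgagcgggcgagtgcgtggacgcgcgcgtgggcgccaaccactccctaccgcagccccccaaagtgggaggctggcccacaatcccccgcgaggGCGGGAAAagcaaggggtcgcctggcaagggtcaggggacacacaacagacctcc
Rmi1: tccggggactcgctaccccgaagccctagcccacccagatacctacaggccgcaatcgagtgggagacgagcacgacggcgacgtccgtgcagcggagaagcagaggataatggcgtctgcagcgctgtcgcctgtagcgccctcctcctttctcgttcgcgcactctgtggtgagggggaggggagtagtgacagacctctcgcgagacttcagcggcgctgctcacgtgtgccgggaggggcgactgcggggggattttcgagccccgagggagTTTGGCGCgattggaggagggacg

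Library totals ran from 12300430 to 19348991 counts, and levels are given as CPM, read counts divided by scaled library size. Kmt2d, the targeted gene, lay at 33.2, 46.9 and 58.0 CPM in NKP, at 34.3, 41.3 and 43.6 CPM in AKP, and at 52.6 to 68.4 CPM in Ptch. The library labelled NKP 3 therefore lay within the Ptch range, while the other NKP libraries and all AKP libraries lay below it, and its log2 fold change against Ptch was -0.34 in NKP (adjusted p = 0.307 by edgeR) and -0.56 in AKP (adjusted p = 0.0650). Ptch1 was at 85.6 to 111 CPM in NKP, 55.5 to 90.7 CPM in AKP and 74.0 to 103 CPM in Ptch. The tissue labels were not borne out evenly by markers. The granule neuron precursor gene Atoh1 had values of 0, 0.221 and 3.67 CPM in NKP, 0, 5.77 and 5.45 CPM in AKP, and 5.71 to 16.4 CPM in Ptch, and the cycling marker Mki67 was below 1 CPM in NKP 1, NKP 2 and AKP 1. In 4 libraries (NKP 3, AKP 3, Ptch 1 and Ptch 3), the labelled sex was contradicted by Y-linked expression. Over all genes, NKP 1 and AKP 1 differed by a chi-square of 3.48 per degree of freedom, close to the 3.47 between Ptch 1 and Ptch 2 and the 3.29 between Ptch 3 and Ptch 4, whereas NKP 1 and NKP 2 differed by 15.9. The library labelled NKP 3 was nearer to Ptch 4, at 3.82, than to NKP 1, at 16.7. The reads carry no strand, so the levels of Xrcc3, Rad54l, Rad54b, Fanca, Fancc, Fancf, Fancl, Fancd2, Fanci and Rmi1, whose gene spans overlap another protein-coding gene, are uncertain, as are those of Brca2, Fance, Rbbp8 and Atr, which overlap antisense transcripts.

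Across the 10 libraries, the summed level of the cell-cycle-linked members varied widely and that of the constant members little. The cell-cycle-linked sum was 43.3, 48.4 and 59.6 CPM in NKP, 42.6, 86.3 and 84.8 CPM in AKP, and 133, 141, 74.0 and 71.6 CPM in Ptch. All NKP libraries lay below all Ptch libraries, AKP 1 lay with NKP, AKP 2 and AKP 3 lay between the 2-month and the 4-month Ptch libraries, and the 4-month pair of Ptch libraries stood highest. The 17 constant members summed to 177 to 187 CPM in NKP, 180 to 188 CPM in AKP and 188 to 204 CPM in Ptch. Here too all NKP libraries lay below all Ptch libraries, by a narrow margin (186.6 against 187.9 CPM). A sum rests mostly on its most abundant genes. In NKP, Rad51d and Rmi1 averaged 26.7 and 22.8 CPM, while Palb2, Rad51b and Chek2 averaged 1.04, 0.721 and 2.03 CPM and so add little to it. A list of 20 mitosis genes moved with the cell-cycle-linked members over a wider range. It summed to 21.6, 17.96 and 95.2 CPM in NKP, to 19.5, 402 and 321 CPM in AKP, and to 629, 614, 207 and 187 CPM in Ptch. The summed level of 10 granule neuron precursor markers was 795 to 856 CPM in NKP, 810 to 930 CPM in AKP and 1021 to 1231 CPM in Ptch. Their median log2 fold change against Ptch was -1.29 in NKP, with 9 of 10 values below 0. In AKP it was -0.57, with 10 of 10 below 0. Over all genes the medians were 0.01 and -0.02. In whole tissue, fewer cells of a type and less RNA per cell cannot be told apart. The ratio of the cell-cycle-linked to the constant sum was 0.235, 0.274 and 0.320 in NKP, 0.234, 0.459 and 0.470 in AKP, and 0.663, 0.692, 0.394 and 0.364 in Ptch. Other cell types moved as well. Oligodendrocyte markers (10 genes) summed to 7620 to 12295 CPM in NKP, 8859 to 11092 CPM in AKP and 6016 to 7428 CPM in Ptch, and red blood cell genes (5 genes) to 780 to 2483, 1740 to 2232 and 710 to 814 CPM in the same groups. Their part in the results was not tested.

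**Figure D1:**
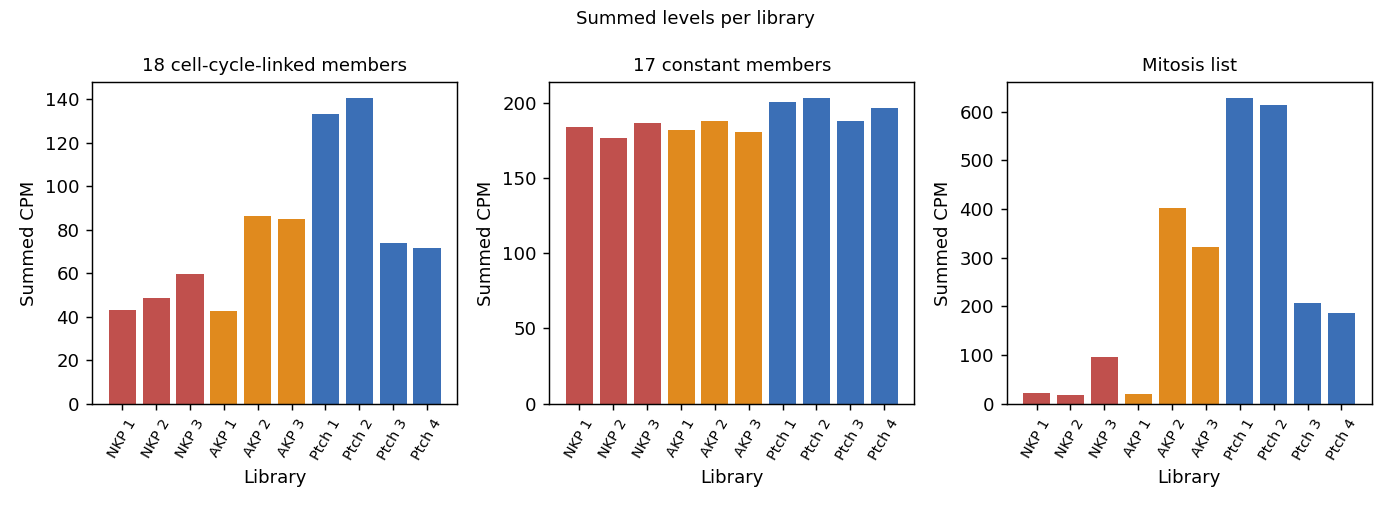
Summed CPM per library (vertical axes, each from 0) of the 18 cell-cycle-linked members, the 17 constant members and the 20 mitosis genes, with NKP in red, AKP in orange and Ptch in blue. In both the cell-cycle-linked and the mitosis sum, Ptch 1 and Ptch 2 are the highest pair and NKP 1, NKP 2 and AKP 1 the lowest libraries, though in another order, while the constant sum stays between 177 and 204 CPM.

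The single members mostly followed this division. The ratio of the highest to the lowest library was 91.0 for Exo1, 31.8 for Bard1, 20.7 for Fancd2, 16.9 for Rad54b and 10.4 for Fanca, all cell-cycle-linked. It was 1.19 for Rad51d, 1.31 for Rmi1, 1.34 for Fance, 1.35 for Fancc and 1.36 for Nbn, all constant. In the order named, the lowest library held 1, 3, 4, 5 and 7 counts for these cell-cycle-linked members. For these constant members it held 313, 264, 188, 155 and 230 counts. A ratio to a library with few counts is imprecise, and class and count level were not separated by these ratios. Both classes had exceptions. Xrcc2, classed as cell-cycle-linked, spanned 1.24-fold, and Fancm, the translocase that anchors the Fanconi core to DNA, spanned 1.47-fold. Palb2, Rad51b and Chek2, classed as constant, spanned 5.44-fold, 5.21-fold and 4.64-fold, which is more than the 4.22-fold of Fancb and the 3.89-fold of Ube2t, both cell-cycle-linked. The lowest library held 111 and 86 counts for Xrcc2 and Fancm, but 12, 7 and 13 for Palb2, Rad51b and Chek2. No ratio is given for Brip1, which had 0 counts in AKP 1. Within the Ptch group alone, where no Cre was present, the mean level at 4 months was 5.87 times that at 2 months for Bard1, 4.31 times for Rad54b and 4.05 times for Fancd2, against 0.960 times for Rad51d and 0.926 times for Rmi1. Here too the classes overlapped, since the ratio was 2.16 for Chek2, 1.79 for Rad51c and 1.76 for Rad51b among the constant members, and 0.898 for Fancm, 0.907 for Fancb and 0.961 for Xrcc2 among the cell-cycle-linked ones. With 2 libraries at each age, and with Y-linked expression absent from both 4-month libraries, these ratios are given without a test.

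**Figure D2:**
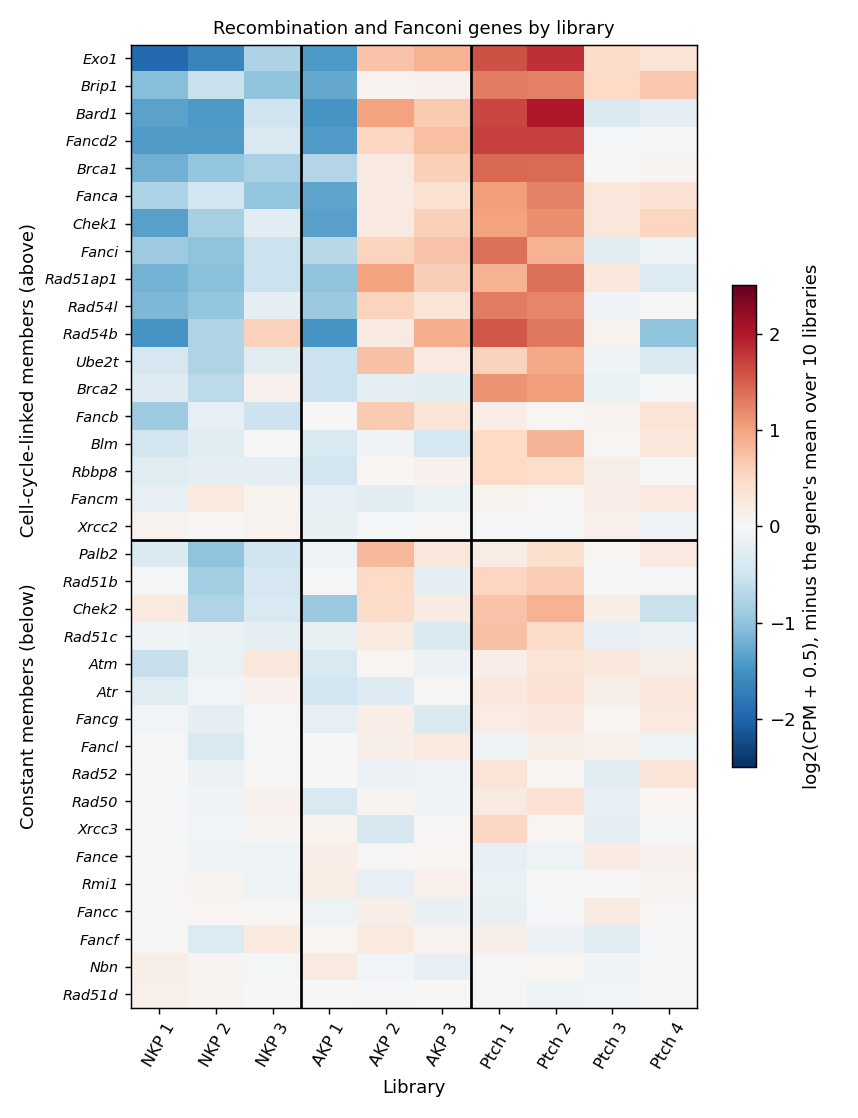
Level of each member in each library, as log2(CPM + 0.5) minus the gene's mean over the 10 libraries (colour scale, red above and blue below the mean), with NKP, AKP and Ptch from left to right. The cell-cycle-linked members, above the horizontal line, are mostly blue in NKP and AKP 1 and red in Ptch 1 and Ptch 2, with Xrcc2, Fancm and Fancb among the exceptions, and most constant members are pale throughout, except Palb2, Rad51b and Chek2.

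Differences between groups were tested with edgeR's quasi-likelihood test in 1 fit over all 10 libraries, with p-values adjusted by Benjamini-Hochberg over all 15617 genes. In NKP against Ptch, 0 of 35 members passed an adjusted p below 0.05, as did 0% of all genes tested. At an unadjusted p below 0.05, 18 members were lower in NKP, against 10.2% of all genes, and 0 were higher, against 6.79%. DESeq2, run as another test, called 9 members lower, against 2.66% of all genes in either direction. All 9 were cell-cycle-linked (Exo1, Brca1, Brip1, Fanca, Fancd2, Rad51ap1, Chek1, Rad54l and Fanci). Every NKP library lay below every Ptch library for 17 members, against 8.95% of all genes, and above it for 0, against 6.96%. The median log2 fold change was -1.68 for the 18 cell-cycle-linked members, of which 17 had a value below 0, and -0.18 for the 17 constant members, of which 12 did, beside 0.01 over all genes. Leaving out NKP 2 brought the constant median to -0.09, and leaving out the library labelled NKP 3 brought the cell-cycle-linked median to -2.00. Without NKP 3, edgeR called 0 members and 0% of all genes, so that count says nothing about the members.

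NKP and 2 of the Ptch libraries share an age of 4 months. Within that age, against Ptch 1 and Ptch 2 alone, 16 members were lower in NKP at an adjusted p below 0.05 (edgeR), beside 15.6% of all genes in either direction. They were 14 cell-cycle-linked members and Rad51c and Chek2, and the median log2 fold change was -2.17 for the cell-cycle-linked and -0.32 for the constant members. In this comparison the groups also differed in Y-linked expression. It summed to 75.5, 68.4 and 87.1 CPM in NKP, but to 0.385 CPM in Ptch 1 and 0.465 CPM in Ptch 2. Group and sex by expression therefore cannot be told apart there. In Ptch 3 and Ptch 4 it summed to 99.2 and 96.9 CPM. With age as a covariate, 10 members were called, beside 5.97% of all genes. Against Ptch 3 and Ptch 4 alone, 0 members were called by edgeR, as were 0% of all genes, and the cell-cycle-linked median was -0.88. An unadjusted p below 0.05 was reached by 7 members (Brca1, Brip1, Chek1, Exo1, Fanca, Fancb and Palb2, all lower in NKP), against 2.99% of all genes in either direction. The size of the difference thus depended on which Ptch libraries it was measured against.

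In AKP against Ptch, 0 of 35 members passed in edgeR, while 5.68% of all genes did. At an unadjusted p below 0.05, 6 members (Blm, Atr, Brca2, Brip1, Fancm and Fanca) were lower in AKP, against 12.7% of all genes, and DESeq2 called Blm, Atr and Brca2 lower, against 12.1% of all genes in either direction. Every AKP library lay below every Ptch library for 6 members (Blm, Atr, Brca2, Brip1, Fancm and Atm), against 12% of all genes. These shares on the lower side are near those of all genes. On the higher side, 0 members reached an unadjusted p below 0.05 in edgeR, against 12.4% of all genes. Every AKP library lay above every Ptch library for 0 members, against 12.9%. The median log2 fold change was -0.75 for the cell-cycle-linked members, with 17 of 18 values below 0, and -0.20 for the constant members, with 10 of 17 below 0, beside -0.02 over all genes. The cell-cycle-linked median rested on few libraries, being -0.36 without AKP 1, -0.49 without Ptch 1, -0.43 without Ptch 2 and 0.04 without both of those Ptch libraries. Leaving out 1 library at a time moved the constant median between -0.30 and -0.07. With age as a covariate, or without the library labelled NKP 3, edgeR still called 0 members, beside 4.68% and 6.64% of all genes. Within 2 months of age, AKP 1 and AKP 2 against Ptch 3 and Ptch 4 gave a cell-cycle-linked median of -0.19 and 0 members called by edgeR, but 0% of all genes were called there, so that count says nothing about the members. At an unadjusted p below 0.05 stood 1 member, Atr, against 14.7% of all genes.

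In AKP against NKP, 0 of 35 members passed in edgeR, beside 0.0064% of all genes, which is 1 gene, and DESeq2 called 0 members, beside 1.12% of all genes. At an unadjusted p below 0.05, 6 members (Palb2, Fancb, Exo1, Brca1, Fanci and Rad51ap1) were higher in AKP in edgeR, against 8.82% of all genes, and 0 were lower, against 8.04%. Every AKP library lay above every NKP library for Palb2, Fancb, Brca1, Fancl and Fance, against 6.69% of all genes, and below it for Xrcc2, against 9.52%. The median log2 fold change was 0.98 for the cell-cycle-linked members, with 14 of 18 values above 0. It was -0.01 for the constant members, and 0.01 with upper-quartile scaling. Without AKP 1, edgeR called Palb2, Exo1, Rad51ap1 and Fancb higher in AKP, beside 8.49% of all genes in either direction. That share of the members is near the share of all genes. At 4 months, AKP 3 against NKP gave 6 calls (Brca1, Exo1, Rad51ap1, Fanci, Bard1 and Fancd2), beside 2.54% of all genes, with the single AKP library assumed to vary like the others. The comparisons of NKP and of AKP with Ptch share their Ptch libraries.

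**Figure D3:**
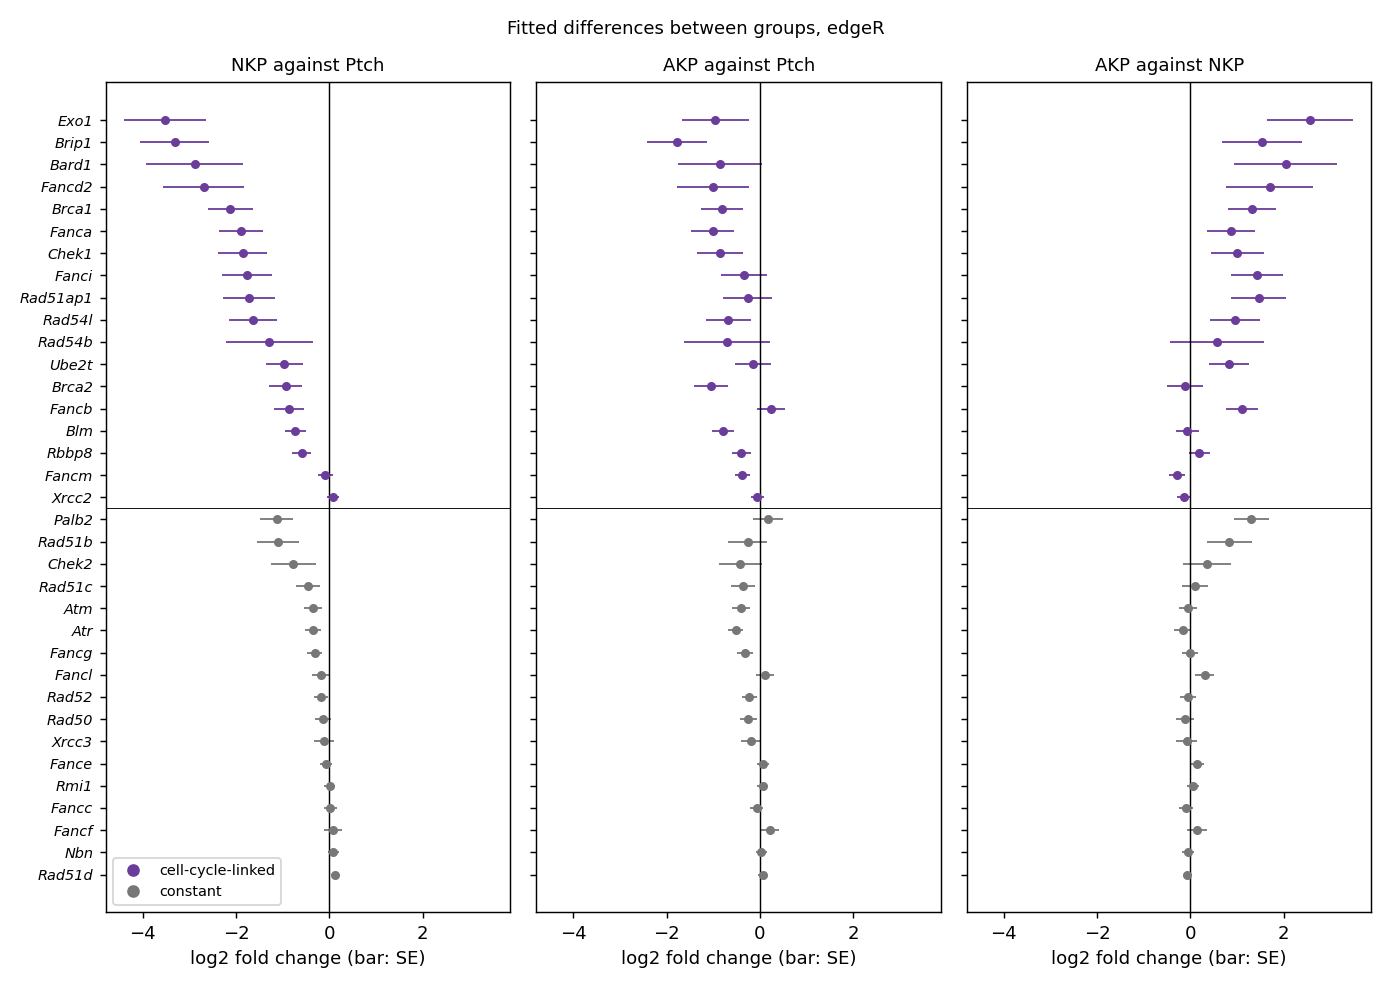
Fitted log2 fold change of each member in the 3 comparisons (horizontal axis, bars show the standard error), with cell-cycle-linked members in purple and constant members in grey. In NKP against Ptch the cell-cycle-linked members run from -3.52 for Exo1 to 0.08 for Xrcc2, in AKP against Ptch they lie nearer to 0 except Blm, Brca2 and Fancm, and in AKP against NKP most lie above 0, with no member past the adjusted threshold in any panel.

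The BRCA1 and BRCA2 complexes were expressed at low levels. All 5 members were lower in NKP than in Ptch at an unadjusted p below 0.05 (edgeR), against 10.2% of all genes. After adjustment 0 passed, as did 0% of all genes. Brca1 (chr11:101488764-101551955, minus strand, GRCm38), the ubiquitin ligase subunit that favours resection and recruits PALB2, had the highest level per transcript length of the 5, at 0.769 CPM per kb over all libraries. Its level was 1.47, 1.82 and 2.08 CPM in NKP, 2.22, 4.83 and 6.41 CPM in AKP, and 11.8, 11.6, 4.02 and 4.25 CPM in Ptch. All NKP libraries lay below all AKP and all Ptch libraries, and AKP overlapped Ptch. In NKP against Ptch the log2 fold change was -2.12 ± 0.489 (SE, adjusted p = 0.218 by edgeR, lower in 3 of 3 NKP libraries). It was 1.31 ± 0.515 (adjusted p = 0.257 by edgeR) in AKP against NKP. Over the 24 alternative settings, the NKP against Ptch value ran from -2.68 to -1.20 and its adjusted p from 1.01e-05 to 0.990 in edgeR or DESeq2, passing in 3.

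Brip1 (chr11:86058138-86201193, minus strand), the helicase that binds BRCA1 and is also a Fanconi protein, had the lowest level per length of all 35 members at 0.140 CPM per kb. It was at 0.0818, 0.332 and 0.110 CPM in NKP, at 0, 0.794 and 0.811 CPM in AKP, and at 2.46, 2.43, 1.22 and 1.46 CPM in Ptch. These rest on 1, 6 and 2 counts in NKP and on 0, 11 and 11 in AKP, where 0 counts allow up to 0.247 CPM, against 23 to 47 counts in Ptch. Every NKP and every AKP library lay below every Ptch library. Log2 fold changes were -3.31 ± 0.741 (SE, adjusted p = 0.218 by edgeR) in NKP and -1.77 ± 0.646 (adjusted p = 0.109) in AKP, each against Ptch. At counts this low a fold change is imprecise.

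Brca2 (chr5:150522630-150570329), which acts on resected DNA and whose promoter is printed above, was at 3.35, 2.54 and 4.71 CPM in NKP, at 2.79, 3.54 and 3.46 CPM in AKP, and at 9.93, 9.40, 3.77 and 4.18 CPM in Ptch. AKP lay below Ptch in every library, narrowly so against the 2-month pair, and the library labelled NKP 3 overlapped Ptch. In AKP against Ptch its log2 fold change was -1.05 ± 0.367 (SE, adjusted p = 0.0971 by edgeR), and -0.27 with Ptch 1 and Ptch 2 left out. Palb2 (chr7:122107262-122132985, minus strand), the bridge between BRCA1 and BRCA2, behaved otherwise. It was at 1.31, 0.663 and 1.15 CPM in NKP, at 1.64, 3.61 and 2.36 CPM in AKP, and at 2.15, 2.69, 1.93 and 2.22 CPM in Ptch. NKP lay below both other groups in every library, AKP overlapped Ptch, and the Ptch libraries of both ages were alike. The log2 fold change was 1.30 ± 0.373 (SE, adjusted p = 0.228 by edgeR) in AKP against NKP, -1.13 ± 0.352 (adjusted p = 0.218) in NKP against Ptch and 0.18 ± 0.327 in AKP against Ptch. Bard1, the obligate partner of BRCA1, averaged 0.530 ± 0.396 CPM in NKP, 2.24 ± 1.78 CPM in AKP and 4.10 ± 3.43 CPM in Ptch (SD, n = 3, 3 and 4).

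**Figure D4:**
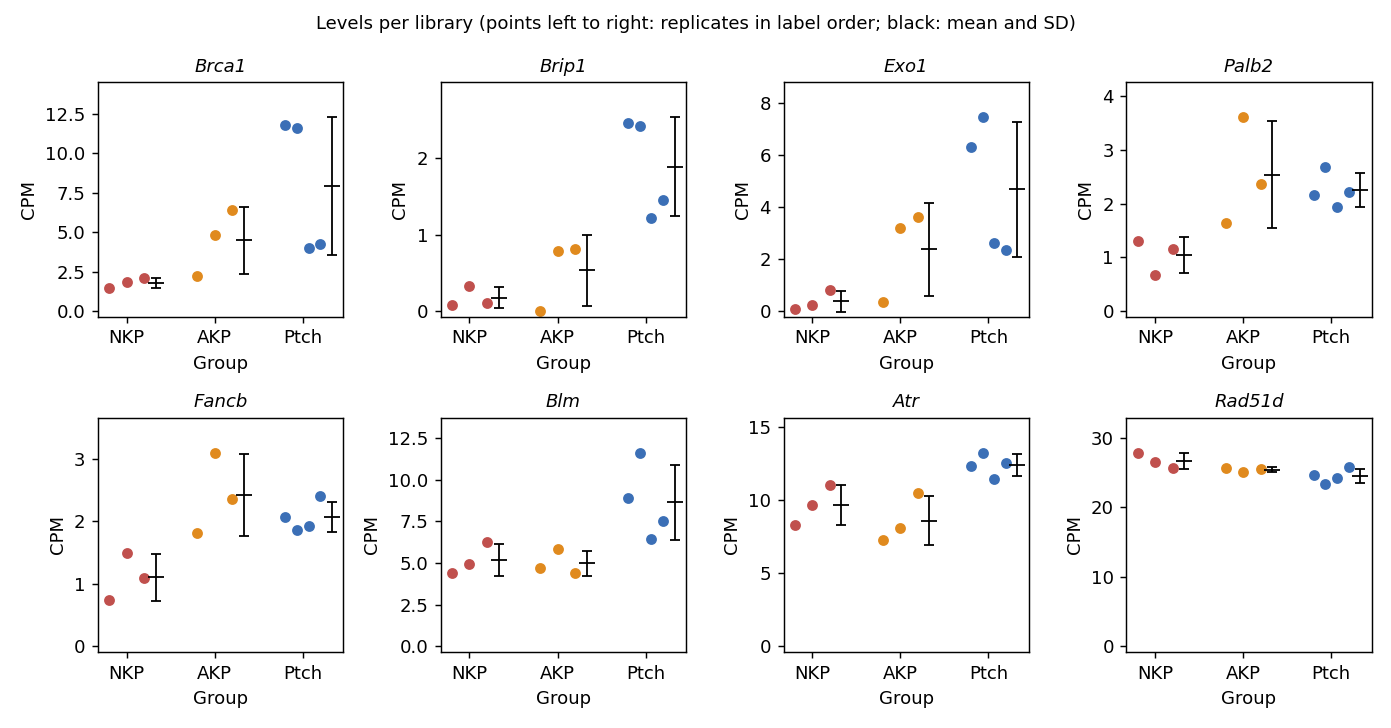
CPM per library (vertical axes from 0 or just below) of 8 members in NKP, AKP and Ptch, with points in the order of the replicate numbers and the mean and SD in black. Brca1, Brip1 and Exo1 separate NKP from Ptch and split the Ptch libraries into a high pair and a low pair, Palb2 and Fancb show NKP below both other groups, Blm and Atr show NKP and AKP below Ptch, and Rad51d lies at 23.4 to 27.9 CPM in every library.

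The 5 paralogs are Rad51b, Rad51c, Rad51d, Xrcc2 and Xrcc3, which assist strand pairing. They had a median log2 fold change of -0.11 in NKP and -0.20 in AKP against Ptch, beside 0.01 and -0.02 over all genes. Rad51d had the highest level per length of them, 7.17 CPM per kb. It was at 27.9, 26.5 and 25.6 CPM in NKP, at 25.7, 25.0 and 25.6 CPM in AKP, and at 24.6, 23.4, 24.2 and 25.8 CPM in Ptch. The groups overlapped, and the log2 fold changes of 0.12 ± 0.0909 in NKP and 0.06 ± 0.0916 in AKP against Ptch (SE) were small. Rad51b, the lowest per length at 0.548 CPM per kb, was at 1.06, 0.387 and 0.712 CPM in NKP, at 1.07, 1.80 and 0.884 CPM in AKP, and at 1.85, 2.01, 1.12 and 1.08 CPM in Ptch. NKP lay below Ptch in every library, with a fitted log2 change of -1.10 ± 0.443 (SE, adjusted p = 0.244 by edgeR), but NKP 1 and Ptch 4 differed by little. Rad51c averaged 5.59 ± 0.252 CPM in NKP, 5.96 ± 1.45 CPM in AKP and 7.71 ± 2.65 CPM in Ptch, the Ptch mean being raised by the 4-month pair. Xrcc2 averaged 10.9 ± 0.271, 9.94 ± 0.734 and 10.3 ± 0.691 CPM, and Xrcc3 6.90 ± 0.392, 6.53 ± 1.23 and 7.50 ± 1.81 CPM, in NKP, AKP and Ptch.

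Of the partners and motors, Rad52, the annealing protein, is classed as constant and the other 3 as cell-cycle-linked. Rad52 was at 13.0, 11.8 and 13.4 CPM in NKP, at 13.2, 11.9 and 11.9 CPM in AKP, and at 16.7, 13.6, 10.9 and 16.5 CPM in Ptch, all groups overlapping. It had the highest level per length of the 4, 3.74 CPM per kb, and Rad54b the lowest, 0.953. Rad54b, a chromatin-remodelling motor of the same family as Rad54l, was at 0.409, 0.995 and 3.23 CPM in NKP, at 0.411, 2.45 and 4.20 CPM in AKP, and at 6.93, 5.79, 2.19 and 0.761 CPM in Ptch. Each group spread widely and all overlapped, so that the log2 fold change of -1.29 ± 0.938 (SE) in NKP against Ptch lay within the spread between libraries. Rad54l averaged 2.32 ± 0.985 CPM in NKP, 4.54 ± 2.29 CPM in AKP and 7.32 ± 3.80 CPM in Ptch. Rad51ap1, which stimulates strand pairing, averaged 2.71 ± 0.797 CPM in NKP, 7.50 ± 4.57 CPM in AKP and 9.02 ± 4.67 CPM in Ptch. NKP lay below Ptch in every library for both genes, with log2 fold changes of -1.63 ± 0.510 for Rad54l and -1.72 ± 0.561 for Rad51ap1 (SE, adjusted p = 0.218 each by edgeR).

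The Fanconi core assembles at a crosslink and, through the ligase FANCL and the conjugating enzyme UBE2T, attaches ubiquitin to the FANCD2 and FANCI pair. Its 9 members had a median log2 fold change of -0.19 in NKP and -0.07 in AKP against Ptch. Fance, the subunit that binds FANCD2, had the highest level per length, 7.66 CPM per kb. It was at 16.9, 15.6 and 15.3 CPM in NKP, at 18.7, 17.0 and 17.3 CPM in AKP, and at 14.5, 15.2, 19.4 and 17.9 CPM in Ptch. AKP lay above NKP in every library, with a fitted log2 change of only 0.15 ± 0.138 (SE), and both overlapped Ptch. Fancc, Fancf, Fancg and Fancl, the other constant subunits, had log2 fold changes of 0.02, 0.08, -0.31 and -0.19 in NKP against Ptch, and -0.07, 0.22, -0.32 and 0.11 in AKP against Ptch. Fancc was at 14.3 ± 0.131 CPM in NKP, 13.5 ± 1.83 CPM in AKP and 14.1 ± 1.77 CPM in Ptch.

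Fanca, a large scaffold subunit of the core, had the lowest level per length of the 9, 0.589 CPM per kb. It was at 1.06, 1.44 and 0.876 CPM in NKP, at 0.575, 2.60 and 3.02 CPM in AKP, and at 5.08, 5.99, 2.80 and 2.98 CPM in Ptch. NKP lay below Ptch in every library, with a fitted log2 change of -1.89 ± 0.478 (SE, adjusted p = 0.218 by edgeR), and AKP overlapped both groups. Fancb (chrX:164980592-164997272, plus strand), an X-linked subunit of the ligase module, was at 0.736, 1.49 and 1.10 CPM in NKP, at 1.81, 3.10 and 2.36 CPM in AKP, and at 2.08, 1.86, 1.93 and 2.41 CPM in Ptch. Like Palb2, it was lower in NKP than in both other groups in every library, and the Ptch libraries of both ages were alike. Its log2 fold change was 1.11 ± 0.342 (SE, adjusted p = 0.228 by edgeR) in AKP against NKP and -0.87 ± 0.323 (adjusted p = 0.227) in NKP against Ptch. Fancm averaged 8.54 ± 1.42 CPM in NKP, 7.00 ± 0.263 CPM in AKP and 9.08 ± 0.616 CPM in Ptch. All AKP libraries lay below all Ptch libraries for Fancm, with a fitted log2 change of -0.38 ± 0.163 (SE, adjusted p = 0.169 by edgeR), which was -0.19 after correction of each library for transcript length and GC content. Ube2t averaged 2.19 ± 0.438 CPM in NKP, 3.86 ± 1.82 CPM in AKP and 4.28 ± 1.97 CPM in Ptch.

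Both members of the ubiquitinated clamp were among the most variable genes. Fancd2 was at 0.327, 0.332 and 1.20 CPM in NKP, at 0.329, 2.67 and 3.24 CPM in AKP, and at 6.77, 6.77, 1.63 and 1.71 CPM in Ptch, with a level of 0.453 CPM per kb over all libraries. Fanci was at 0.981, 0.884 and 1.42 CPM in NKP, at 1.23, 3.61 and 4.05 CPM in AKP, and at 6.77, 4.60, 1.78 and 2.09 CPM in Ptch, with 0.590 CPM per kb. For both genes every NKP library lay below every Ptch library, AKP 1 lay with NKP, and AKP 2 and AKP 3 lay between the younger and the older Ptch libraries. In NKP against Ptch the log2 fold change was -2.70 ± 0.871 for Fancd2 and -1.77 ± 0.535 for Fanci (SE, adjusted p = 0.218 each by edgeR).

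Among the resection and dissolution genes, Nbn and Rad50 of the MRE11 complex, which senses broken ends, and Rmi1 had log2 fold changes between -0.25 and 0.08 against Ptch. Nbn, the highest per length of all 35 members at 7.75 CPM per kb, was at 21.6, 20.5 and 18.9 CPM in NKP, at 23.1, 18.7 and 16.9 CPM in AKP, and at 19.2, 20.4, 18.2 and 18.95 CPM in Ptch, all groups overlapping. Rad50 averaged 10.4 ± 0.789 CPM in NKP, 9.60 ± 1.59 CPM in AKP and 11.4 ± 2.04 CPM in Ptch. Rmi1, whose promoter holds E2F-type letters, averaged 22.8 ± 1.68, 23.6 ± 3.28 and 22.6 ± 1.60 CPM in NKP, AKP and Ptch, with log2 fold changes of 0.01 ± 0.118 in NKP and 0.06 ± 0.119 in AKP against Ptch (SE). Rbbp8, the nuclease cofactor CtIP that starts resection, averaged 5.49 ± 0.164 CPM in NKP, 6.28 ± 1.39 CPM in AKP and 8.29 ± 1.42 CPM in Ptch. NKP lay below Ptch in every library for Rbbp8, with a fitted log2 change of -0.59 ± 0.203 (SE, adjusted p = 0.218 by edgeR).

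Exo1 (chr1:175880581-175913489, plus strand), the exonuclease of long-range resection, had the largest fold change of the 35 members in NKP against Ptch. It was at 0.0818, 0.221 and 0.821 CPM in NKP, at 0.329, 3.17 and 3.61 CPM in AKP, and at 6.31, 7.44, 2.60 and 2.35 CPM in Ptch. The NKP values rest on 1, 4 and 15 counts and the AKP values on 4, 44 and 49 counts, against 37 to 144 counts in Ptch. NKP lay below Ptch in every library, AKP 1 lay among the NKP libraries, and AKP 2 and AKP 3 overlapped Ptch. The log2 fold change was -3.52 ± 0.879 (SE, adjusted p = 0.218 by edgeR) in NKP against Ptch and 2.56 ± 0.927 (adjusted p = 0.245) in AKP against NKP. Blm (chr7:80454733-80535119, minus strand), the helicase that dissolves joined molecules, showed another pattern. It was at 4.42, 4.92 and 6.24 CPM in NKP, at 4.69, 5.84 and 4.42 CPM in AKP, and at 8.93, 11.6, 6.46 and 7.54 CPM in Ptch. NKP and AKP overlapped, and every library of both lay below every Ptch library. Log2 fold changes were -0.73 ± 0.229 (SE, adjusted p = 0.218 by edgeR) in NKP and -0.79 ± 0.232 (adjusted p = 0.0606) in AKP, each against Ptch. AKP 1, which lay with NKP for Exo1, lay within the range of the other AKP libraries for Blm.

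The 4 damage kinases all had a log2 fold change below 0 against Ptch in both NKP and AKP, and those of Chek1 were the largest. Atr (chr9:95857597-95951781, plus strand), the kinase that answers stalled replication, was at 8.26, 9.67 and 11.0 CPM in NKP, at 7.23, 8.08 and 10.5 CPM in AKP, and at 12.3, 13.2, 11.4 and 12.5 CPM in Ptch. Every NKP and AKP library lay below every Ptch library, NKP 3 by a narrow margin. The log2 fold change was -0.35 ± 0.164 (SE, adjusted p = 0.293 by edgeR) in NKP and -0.52 ± 0.166 (adjusted p = 0.0754) in AKP, each against Ptch. The AKP value was -0.39 after the length and GC correction. Atm, which answers broken ends and had the highest level per length of the 4 at 1.45 CPM per kb, was at 9.16, 12.5 and 17.1 CPM in NKP, at 10.6, 14.4 and 12.6 CPM in AKP, and at 15.8, 17.9, 17.1 and 15.5 CPM in Ptch. AKP lay below Ptch in every library, with a fitted log2 change of -0.40 ± 0.188 (SE, adjusted p = 0.204 by edgeR), which was -0.19 after that correction, and the library labelled NKP 3 lay within the Ptch range.

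Chek1, the effector kinase of ATR and the lowest of the 4 per length at 0.725 CPM per kb, was at 0.572, 1.05 and 1.81 CPM in NKP, at 0.575, 2.74 and 3.68 CPM in AKP, and at 5.08, 5.68, 2.85 and 3.49 CPM in Ptch. All NKP libraries lay below all Ptch libraries, and AKP overlapped both groups. The log2 fold change in NKP against Ptch was -1.86 ± 0.530 (SE, adjusted p = 0.218 by edgeR). Chek2, the effector kinase of ATM, averaged 2.03 ± 0.899 CPM in NKP, 2.54 ± 1.32 CPM in AKP and 3.42 ± 1.56 CPM in Ptch, with all groups overlapping.

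Of 59 other recombination and Fanconi genes in the table, 57 were tested. In NKP against Ptch, 46 of the 57 had a log2 fold change below 0, against 47.7% of all genes, with a median of -0.16. None passed in edgeR, as did 0% of all genes. At an unadjusted p below 0.05, 17 were lower, against 10.2% of all genes, and 1 was higher, against 6.79%. The smallest p-values belonged to Topbp1, the activator of ATR (-0.70 ± 0.153, SE), Parpbp, an inhibitor of recombination (-3.61 ± 0.854), and the resection nuclease Dna2 (-1.23 ± 0.337), with an adjusted p of 0.218 each by edgeR. Parpbp was at 0.164, 0.111 and 0.164 CPM in NKP and at 0 CPM in AKP 1, so its fold changes against or from NKP are imprecise. In AKP against Ptch, 40 of the 57 were below 0, against 52.3% of all genes, with a median of -0.11. Called lower by edgeR were 3 genes, against 2.3% of all genes. Slx4, the scaffold of structure-specific nucleases, was at 19.2, 20.3 and 18.8 CPM in AKP and at 28.9, 26.9, 25.2 and 27.2 CPM in Ptch, with a log2 difference of -0.47 ± 0.112 (SE, adjusted p = 0.0334 by edgeR). Topbp1 was at 15.7, 19.3 and 17.2 CPM in AKP and at 32.1, 28.9, 22.8 and 20.9 CPM in Ptch, with a log2 difference of -0.58 ± 0.154 (adjusted p = 0.0449). Rtel1, a helicase that dismantles D-loops, was at 17.0, 17.4 and 16.8 CPM in AKP and at 26.0, 25.7, 21.0 and 21.6 CPM in Ptch, with a log2 difference of -0.47 ± 0.123 (adjusted p = 0.0458). The groups did not overlap for any of the 3. The calls were fragile, since each was lost without any single library among Ptch 1 to Ptch 4, AKP 2 or AKP 3. Those of Topbp1 and Rtel1 were also lost without AKP 1 or NKP 2, and that of Topbp1 without NKP 3.

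In AKP against NKP none of the 57 passed in edgeR, beside 0.0064% of all genes, with a median of 0.09. The smallest p-values there belonged to Rtel1 (-0.41 ± 0.131, SE), Wdr48, the cofactor of the enzyme that removes ubiquitin from FANCD2 (-0.25 ± 0.0855), and Parpbp (2.55 ± 0.939). The other lists set the scale. In NKP against Ptch, the 20 mitosis genes had a median log2 fold change of -3.16 and the 20 replication genes -1.77, beside -1.68 for the cell-cycle-linked members, -0.20 for 15 end-joining genes and -0.17 for 10 mismatch repair genes. In AKP against Ptch the mitosis median was -0.69 and the replication median -0.58, beside -0.75 for the cell-cycle-linked members. In AKP against NKP they were 2.49 and 1.16, beside 0.98. No gene of these lists passed in NKP against Ptch in edgeR, where 0% of all genes did.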

How the data were processed

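Per the labels' protocols, RNA was extracted with RNeasy kits and made into TruSeq poly-A libraries, a kit without strand marking. The submitters' processing notes name Trim Galore, STAR, RSEM and the build GRCm38. Of tool versions and gene annotation, nothing is stated in the sources used here. The authors deposited 1 expected count per gene symbol and library, already whole, so rounding changed no value. RSEM divides reads among similar genes by estimation.

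Library sizes were scaled by TMM and genes kept by filterByExpr, which left 15617 of 39769. The quasi-likelihood test of edgeR 4.0.16 under R 4.3.3, with robust dispersion, compared the groups in 1 fit of 3 groups with no covariate. Calls needed a p below 0.05 after Benjamini-Hochberg adjustment over all genes tested. The standard error of a log2 fold change was taken as the change over the root of F. Levels per length are CPM per kb of the longest GENCODE vM21 transcript. A count of 0 allows up to 3 counts in a library, for counting error only. With 3 or 4 libraries a group, depth and spread limit genes below about 1 CPM most. The code was tested on simulated counts. One gene of the recombination list is not reported here, and no count of that list includes it.

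The members, lists, classes and alternatives were chosen with earlier results of these data known. Values in every library are given for the 4 members with the smallest p in each comparison and the highest and lowest per length in each role group. Of the other recombination genes, those past the threshold are named, otherwise the 3 with the smallest p. Alternatives were DESeq2 1.42.0, other scalings and filters, fits of only the groups compared, age or sex label as a covariate, age-matched libraries, a replicate block, doubted or single libraries left out, and a lowess correction for transcript length and GC content (95.6% of tested genes had both).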

Additional observations from a re-analysis of the deposited data

How the results depend on the processing

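Results were recomputed under 24 alternative settings, and none changed sign past the threshold. Brip1 was not tested for AKP against NKP in the fit of only those groups. The number of members called in NKP against Ptch was 0 in edgeR's fit of all libraries, beside 0% of all genes. It was 9 with DESeq2 (2.66% of all genes), 10 with age as a covariate (5.97%) and 16 with age-matched libraries (15.6%). In AKP against Ptch it was 3 with DESeq2, beside 12.1% of all genes, so these calls do not set the members apart. In AKP against NKP it was 6 with age-matched libraries, where AKP 3 is the single AKP library and is assumed to vary like the others, and ran from 0 to 4 when single libraries were left out. Age-matching moved the median log2 fold change of the constant members to -0.32 in NKP against Ptch and to -0.0265 in AKP against Ptch. Leaving out Ptch 1 and Ptch 2 moved the cell-cycle-linked median to -0.88 in NKP against Ptch and to 0.0434 in AKP against Ptch, and the constant median to 0.0324 in the second. Leaving out the 4 libraries against their sex label moved the constant median to 0.15 in AKP against NKP. Causes were not tested. Without NKP 1, NKP 2 and AKP 1, which had almost no Mki67, no member was called by edgeR and the cell-cycle-linked medians were -1.14 (NKP against Ptch), -0.35 (AKP against Ptch) and 1.08 (AKP against NKP). With the length and GC correction they were -1.69, -0.69 and 1.05, and the calls of Slx4, Topbp1 and Rtel1 were lost. Those calls were lost in 12, 18 and 17 of the 24 settings.

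The groups share replicate numbers. With the replicate number as a block, 0 members were called in each comparison, with cell-cycle-linked medians of -1.97, -0.99 and 0.93, and the genes called in AKP against Ptch went to 0, against 887 without it. Deviations of same-numbered libraries correlated between -0.33 and 0.34, and 4 of 10 libraries were closest to their own number. These values do not settle whether the numbers pair the libraries. Members below about 1 CPM, such as Brip1, Exo1 and Bard1 in NKP, rest on few counts, and their fold changes are limited by depth.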
